A study of Mus musculus with 6 samples.

Results

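The mitochondrial protein import genes were followed in macrophages grown from mouse bone marrow and treated with resolvin D1 (RvD1). Their gene symbols chose them: names beginning with Timm or Tomm and a digit, and Romo1, Dnajc19, Pam16, Grpel1, Hspa9, Pmpca and Pmpcb, which gave 30 of the 38087 rows of the table. RvD1, a lipid derived from docosahexaenoic acid, signals through ALX/FPR2 and is known for its part in ending inflammation. The treated group was 3 libraries of macrophages given 10 nM RvD1 for 6 h, and the control group was 3 libraries of untreated macrophages. Both came from male C57BL/6J mice, aged 8 to 10 weeks per the treatment protocol and 2 to 4 months per the age label. In both, marrow was cultured for 7 days with 10 ng/ml of M-CSF, a growth factor for macrophages, and re-plated without it for 24 h before exposure. The labels name no vehicle for the untreated cells and leave unstated whether the 3 libraries of a group stem from different animals or dishes. The p-values therefore reflect only how these libraries scatter, which may be technical.

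Almost all mitochondrial proteins are encoded in the nucleus, made in the cytosol and imported. Precursors enter through the TOM complex of the outer membrane, and small TIM chaperones escort hydrophobic ones across the space between the membranes. The TIM22 complex inserts carrier proteins into the inner membrane. The TIM23 complex passes proteins with a presequence to the matrix, where a motor built on the chaperone mortalin pulls them in and a peptidase removes the presequence. In macrophages this route supplies the respiratory chain and the enzymes of the citric acid cycle.

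With RvD1, 2 import genes fell, Romo1 and Timm13, and 0 rose in the limma test over all genes. Romo1, a small inner membrane protein of the TIM23 complex, stood at 0.606 of its untreated level, with a 95% interval of 0.496 to 0.740 and 3 libraries in each group (limma adjusted p = 0.0436). Timm13, a small TIM chaperone, stood at 0.787 of its untreated level, with an interval of 0.718 to 0.864 (limma adjusted p = 0.0400). Each of the 2 passed in 6 of 15 alternative fits given further on. Neither passed when the values were corrected for transcript length and GC content alone. The other 26 tested members did not pass at an adjusted p of 0.05. In the table as a whole, 0.556% of the 18899 tested genes were called lower and 0.561% higher. Tomm20l and Timm8a2, both relatives of import genes, were listed at 0 in all 6 libraries and were not tested, which left 28 tested members. In bulk RNA, fewer cells of a type and less RNA per cell cannot be told apart.

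Values are log2 normalized read numbers as deposited, where a value of 0 stands for 1 normalized read or less, and a log2 difference is RvD1 minus untreated. Depth, estimated from the size of a step of 1 read, was 11.2 to 16.3 M reads in RvD1 libraries and 9.05 to 14.3 M in untreated libraries. The tested members rested on at least 42.3 estimated reads in every library. The 8 macrophage markers were all detected, with summed levels of 102493 to 131569 normalized reads in RvD1 and 98473 to 128069 in untreated libraries. Of the markers of other cells, the 6 fibroblast and stromal markers summed to 36933 to 57555 in RvD1 and 40581 to 47589 in untreated libraries. The 7 neutrophil and precursor markers summed to 3972 to 10258 in RvD1 and 2919 to 10263 in untreated libraries. The 4 endothelial markers summed to 420 to 1177 in RvD1 and 323 to 540 in untreated libraries. The 4 mast cell and basophil markers summed to 50.6 to 135 in RvD1 and 35.3 to 68.2 in untreated libraries, and the 6 dendritic cell markers to 68.3 to 75.1 and 59.4 to 75.6. The lymphocyte markers summed to 0 to 1.99 in RvD1 and 0 to 4.27 in untreated libraries, with Cd3e and Ms4a1 listed at 0 throughout. The erythroid markers summed to 8.94 to 14.9 in RvD1 and 7.57 to 11.2 in untreated libraries, most of it from Epor, with Hbb-bs listed at 0 throughout. The sums of all these lists overlapped between the groups and 0 of their genes passed the test. All 4 endothelial and all 4 mast cell and basophil markers had positive log2 differences, with medians of 0.69 and 0.94, where the highest of an import gene was 0.22. Each of these markers was also higher in every RvD1 library than in the untreated library of the same replicate number. The part of these markers in the results was not tested.

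Romo1 (ENSMUSG00000067847; chromosome 2, 156144039 to 156145797, plus strand, mm10, protein-coding) stood at 7.86, 7.75 and 7.88 (log2) in RvD1 replicates 1, 2 and 3. It stood at 8.28, 8.57 and 8.81 in untreated replicates 1, 2 and 3. All 3 RvD1 libraries lay below all 3 untreated ones, and the untreated libraries were the more scattered. The means were 7.83 ± 0.07 with RvD1 and 8.55 ± 0.27 untreated (SD, n = 3 each), a log2 difference of -0.72 (SE 0.13), lower than that of all but 2.60% of tested genes. Its exons overlap those of Nfs1, a cysteine desulfurase on the opposite strand, and the labels do not say whether strand was used in counting. Nfs1 stood at 8.93, 8.99 and 8.91 in RvD1 and 9.07, 9.08 and 8.80 in untreated replicates 1, 2 and 3, with overlapping groups and a log2 difference of -0.04 (limma adjusted p = 0.844).

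Timm13 (ENSMUSG00000020219; chromosome 10, 80899450 to 80900969, minus strand, mm10, protein-coding) works with Timm8a and Timm8b proteins, which carry precursors such as Timm23 to the inner membrane. It stood at 9.61, 9.50 and 9.53 (log2) in RvD1 replicates 1, 2 and 3 and at 9.84, 9.91 and 9.92 in untreated replicates 1, 2 and 3. The groups were tight and well apart, with means of 9.54 ± 0.06 with RvD1 and 9.89 ± 0.05 untreated (SD, n = 3 each). The log2 difference was -0.34 (SE 0.06). Tmprss9, the gene whose exons overlap it on the opposite strand, was listed at 0 in all 6 libraries.

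The promoter windows of the 2 genes that fell, and of Tomm6, the member just short of the threshold, are shown to set their sequences side by side. Each runs from 250 bases before to 50 bases after the RefSeq start on GRCm38.p6 (the mm10 assembly), 5′ to 3′ on the gene's strand, at chr2:156143983-156144282 (plus), chr10:80900920-80901219 (minus) and chr17:47688337-47688636 (minus). Capitals mark matches on either strand to GCGCA followed by any base and GCGC, a motif of NRF1, to CCGGAAG, a motif of ETS factors such as GABP, or to AAGATGGC, a motif of YY1. These factors are known regulators of nuclear genes for mitochondria.
Romo1: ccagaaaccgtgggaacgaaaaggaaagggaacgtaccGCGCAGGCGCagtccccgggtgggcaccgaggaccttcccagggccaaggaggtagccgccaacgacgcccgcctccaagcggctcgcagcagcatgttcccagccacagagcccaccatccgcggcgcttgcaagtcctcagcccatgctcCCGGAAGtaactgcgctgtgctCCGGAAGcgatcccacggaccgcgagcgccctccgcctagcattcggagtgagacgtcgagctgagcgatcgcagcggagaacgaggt
Timm13: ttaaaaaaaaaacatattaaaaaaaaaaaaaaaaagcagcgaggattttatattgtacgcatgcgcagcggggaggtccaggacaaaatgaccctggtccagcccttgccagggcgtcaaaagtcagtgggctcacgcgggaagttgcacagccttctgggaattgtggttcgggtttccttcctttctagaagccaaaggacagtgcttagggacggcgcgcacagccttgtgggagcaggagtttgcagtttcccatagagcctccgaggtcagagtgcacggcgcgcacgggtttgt
Tomm6: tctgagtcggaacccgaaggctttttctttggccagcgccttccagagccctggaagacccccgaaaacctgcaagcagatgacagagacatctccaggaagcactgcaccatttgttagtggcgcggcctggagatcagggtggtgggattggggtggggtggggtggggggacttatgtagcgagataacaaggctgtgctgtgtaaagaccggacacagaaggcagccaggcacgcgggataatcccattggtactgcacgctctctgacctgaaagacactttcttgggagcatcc
The Romo1 window held 1 NRF1 match, which began 212 bases before the start, and 2 ETS matches, which began 60 and 38 bases before it. Its RefSeq start, at 156144233, lies inside the span that GENCODE gives the gene. The Timm13 and Tomm6 windows held 0 matches to these letters. Promoter windows were found in RefSeq for 26 of the 30 members, 28 windows in all. An ETS match was present in 12 of the 28 (42.9%), an NRF1 match in 4 (14.3%) and a YY1 match in 1 (3.57%). The 28 windows include those of the untested Tomm20l and Timm8a2, of which Timm8a2 held an ETS match. Over the 13591 windows of tested genes whose symbol was found in RefSeq the shares were 15.4%, 8.74% and 3.92%. Over all 32851 windows they were 8.86%, 4.60% and 2.75%. A match is a description of the letters and shows neither binding nor a cause.

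The channel and receptors of the TOM complex gave 6 tested members, of which 0 passed, 3 had negative and 3 positive log2 differences. Tomm40, the channel itself, stood at 10.00, 9.71 and 9.70 (log2) in RvD1 and 10.08, 10.14 and 10.01 in untreated replicates 1, 2 and 3. RvD1 replicate 1 lay close under the untreated libraries and the other two lay further below, for a log2 difference of -0.27 (SE 0.09; limma adjusted p = 0.135). Its relative Tomm40l had a log2 difference of -0.18 (SE 0.09), again with RvD1 below untreated in every library. The receptors differed less: Tomm20, which binds presequences, had a log2 difference of -0.06 (SE 0.05), Tomm22, the central receptor, 0.05 (SE 0.06), and Tomm70a, which takes precursors from cytosolic chaperones, 0.08 (SE 0.05). Tomm34, a cytosolic co-chaperone, had 0.03 (SE 0.09). Groups overlapped for all 4 of these.

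The small subunits of the TOM complex, Tomm5, Tomm6 and Tomm7, which stabilize it and help assemble it, were all negative, and 0 of 3 passed. Tomm6 (ENSMUSG00000033475; chromosome 17, 47686646 to 47688386, minus strand) stood at 8.62, 8.55 and 8.56 (log2) in RvD1 and 8.89, 8.98 and 8.87 in untreated replicates 1, 2 and 3. The groups did not overlap, and the log2 difference of -0.34 (SE 0.07) was close to that of Timm13, with a limma adjusted p of 0.0533. It passed when only the 13176 genes with mean log2 values of 5 or more were tested (limma adjusted p = 0.0376), where 1.87% of genes were called lower and 1.65% higher. Gm21981, a gene model on the same strand whose exons overlap Tomm6, had nearly the same values (8.61, 8.52 and 8.56 in RvD1, 8.87, 8.94 and 8.83 in untreated replicates 1, 2 and 3), and Tomm6os lies on the opposite strand. How reads were divided among these rows is not stated, so the value of Tomm6 is uncertain. Tomm5 stood at 8.26, 8.10 and 8.13 in RvD1 and 8.46, 8.50 and 8.44 in untreated replicates 1, 2 and 3, again without overlap, for a log2 difference of -0.31 (SE 0.07; limma adjusted p = 0.0801). Tomm7 had -0.11 (SE 0.08) with overlapping groups.

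Among the 5 tested small TIM chaperones, Timm13 fell and the other 4 did not pass. Timm8b, one partner of Timm13, stood at 8.02, 7.62 and 7.81 (log2) in RvD1 and 8.19, 7.85 and 8.23 in untreated replicates 1, 2 and 3. Timm10, a partner of Timm9 in the chaperone for carrier proteins, stood at 7.89, 7.42 and 7.50 in RvD1 and 7.80, 8.03 and 7.81 in untreated replicates 1, 2 and 3. Both had log2 differences near that of Timm13, at -0.28 (SE 0.13) and -0.27 (SE 0.13), but wide scatter and overlapping groups. Timm9 had a log2 difference of -0.09 (SE 0.16), with RvD1 replicate 3 at 6.87, under all other libraries.

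Timm8a1 was the member with the highest log2 difference, 0.22 (SE 0.10; limma adjusted p = 0.273). The human counterpart is the gene of a deafness and dystonia syndrome. It stood at 8.06, 7.98 and 7.82 (log2) in RvD1 and 7.83, 7.79 and 7.57 in untreated replicates 1, 2 and 3, so the groups overlapped narrowly. Of the windows of 50 bases in its longest transcript, 41.0% also occur in a transcript of Gm9797, so its reads are partly shared.

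Timm22, the channel for carrier proteins, stood at 8.21, 8.12 and 8.23 (log2) in RvD1 and 8.25, 8.30 and 8.51 in untreated replicates 1, 2 and 3. RvD1 lay below untreated by a narrow gap, for a log2 difference of -0.17 (SE 0.09; limma adjusted p = 0.343). Its partners Timm10b and Timm29 stand in the table under the older symbols Fxc1 and 1810026J23Rik and are therefore not members, and had log2 differences of -0.11 (SE 0.10) and -0.01 (SE 0.06).

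**Figure D1:**
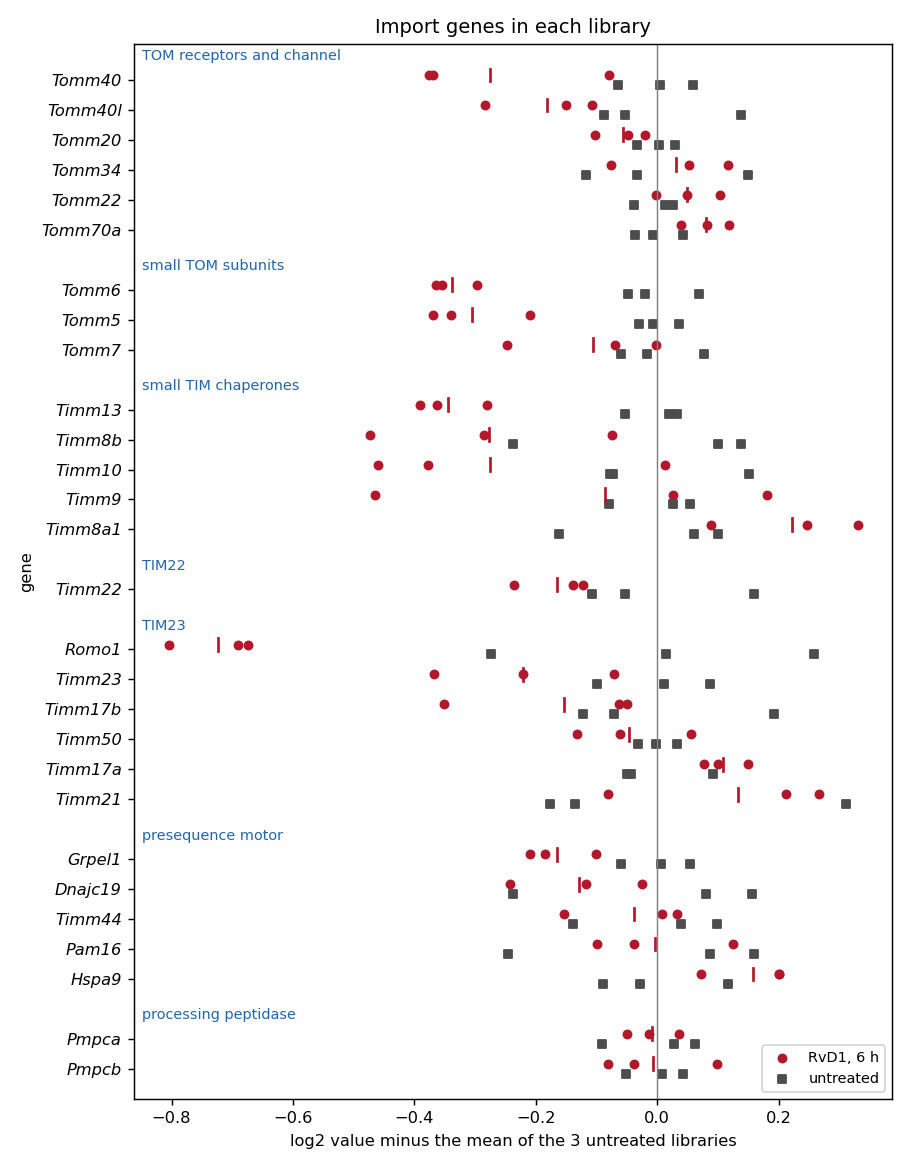
Log2 value of each library minus the mean of the 3 untreated libraries, for the 28 tested import genes grouped by role, with red circles for RvD1 and grey squares for untreated libraries, and a red bar at the RvD1 mean. Romo1 stands apart on the left. RvD1 also lies wholly below untreated in Timm13, which passed the test, and in Tomm6, Tomm5, Tomm40, Grpel1, Tomm40l and Timm22, which did not.

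Within the TIM23 complex Romo1 fell, and 0 of the other 5 members passed. Timm23, the channel, stood at 7.83, 7.54 and 7.68 (log2) in RvD1 and 7.80, 7.99 and 7.91 in untreated replicates 1, 2 and 3, a log2 difference of -0.22 (SE 0.10). That row is uncertain: 90.9% of the windows of 50 bases of its transcript also occur in other genes, among them Gm10273, Gm10233 and Gm10171, whose values were of like size (7.56 to 8.13 in RvD1, 7.61 to 8.30 in untreated libraries). Timm50, the receptor for presequences, had -0.05 (SE 0.07), and Timm21, which links the complex to the respiratory chain, 0.13 (SE 0.16). The channel partners Timm17a and Timm17b had 0.11 (SE 0.07) and -0.15 (SE 0.12).

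The motor at the matrix side was led in abundance by Hspa9 (mortalin), the chaperone that pulls precursors in. Hspa9 stood at 12.97, 12.97 and 12.84 (log2) in RvD1 and 12.89, 12.74 and 12.68 in untreated replicates 1, 2 and 3, so that 1 untreated library lay within the RvD1 range, for a log2 difference of 0.16 (SE 0.07; limma adjusted p = 0.258). Grpel1, its nucleotide exchange factor, went the other way. It stood at 9.77, 9.88 and 9.80 in RvD1 and 9.92, 9.99 and 10.03 in untreated replicates 1, 2 and 3, without overlap, for a log2 difference of -0.16 (SE 0.06; limma adjusted p = 0.174).

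The other motor genes overlapped between the groups. Dnajc19 and Pam16, the J-protein and its regulator, had log2 differences of -0.13 (SE 0.13) and 0.00 (SE 0.16), and Timm44, the anchor of the motor, -0.04 (SE 0.08). Exons of Tomm40, Tomm40l, Tomm70a, Timm8b, Grpel1, Dnajc19, Pam16 and Pmpca also overlap those of expressed genes on the opposite strand, so these values carry the same doubt as that of Romo1. The subunits of the processing peptidase, Pmpca and Pmpcb, had -0.01 (SE 0.06; 95% interval -0.14 to 0.13) and -0.01 (SE 0.07; 95% interval -0.16 to 0.14).

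Per length of the longest protein-coding transcript, Hspa9 had the highest level, 2562 normalized reads per kb in RvD1 and 2298 in untreated libraries. Timm13 came next in untreated libraries at 775 per kb, against 610 with RvD1. Romo1 followed with 666 per kb in untreated libraries, against 399 with RvD1. The lowest tested member in untreated libraries was Timm21, at 61.0 per kb with RvD1 and 56.0 untreated.

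Across the 28 tested members, 21 log2 differences were negative and 7 positive, where 49.2% of all tested genes were negative and 50.8% positive. The median log2 difference was -0.10 for the members and 0.00 for all tested genes. At an unadjusted p under 0.05 in limma, 6 members were lower (Romo1, Timm13, Tomm6, Tomm5, Tomm40 and Grpel1) and 0 higher, with 9.65% of all tested genes lower and 10.3% higher. RvD1 lay wholly below untreated in 8 members, the same 6 with Tomm40l and Timm22, and wholly above in 0. Over all tested genes these shares were 12.8% and 12.6%. The mean over the 28 members was 8.82, 8.73 and 8.72 (log2) in RvD1 and 8.88, 8.84 and 8.87 in untreated replicates 1, 2 and 3. These means did not overlap, and RvD1 replicate 1 was the nearest to the untreated libraries.

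Small subunits and the other members are given side by side, and the difference between them was not tested. The 8 tested small TOM subunits and small TIM chaperones had a median log2 difference of -0.28, with 7 negative, and the other 20 members -0.04, with 14 negative. Their means were 8.34, 8.19 and 8.11 (log2) in RvD1 and 8.42, 8.41 and 8.37 in untreated replicates 1, 2 and 3. These genes have short transcripts, with a median longest transcript of 1081 bases against 2792 bases for the other members. After the correction for length and GC content given further on, the medians were -0.18 and -0.12, and the mean over the small subunits overlapped between the groups (8.36, 8.21 and 8.11 in RvD1, 8.40, 8.41 and 8.33 in untreated replicates 1, 2 and 3). Over all tested genes with a longest transcript under 1500 bases, 62.4% had a negative log2 difference and the median was -0.08, while the 9 tested members under that length had a median of -0.28 and 8 negative values. Among members of 1500 bases or more, 13 of 19 were negative with a median of -0.04, against 44.2% and 0.03 over all tested genes of that length.

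**Figure D2:**
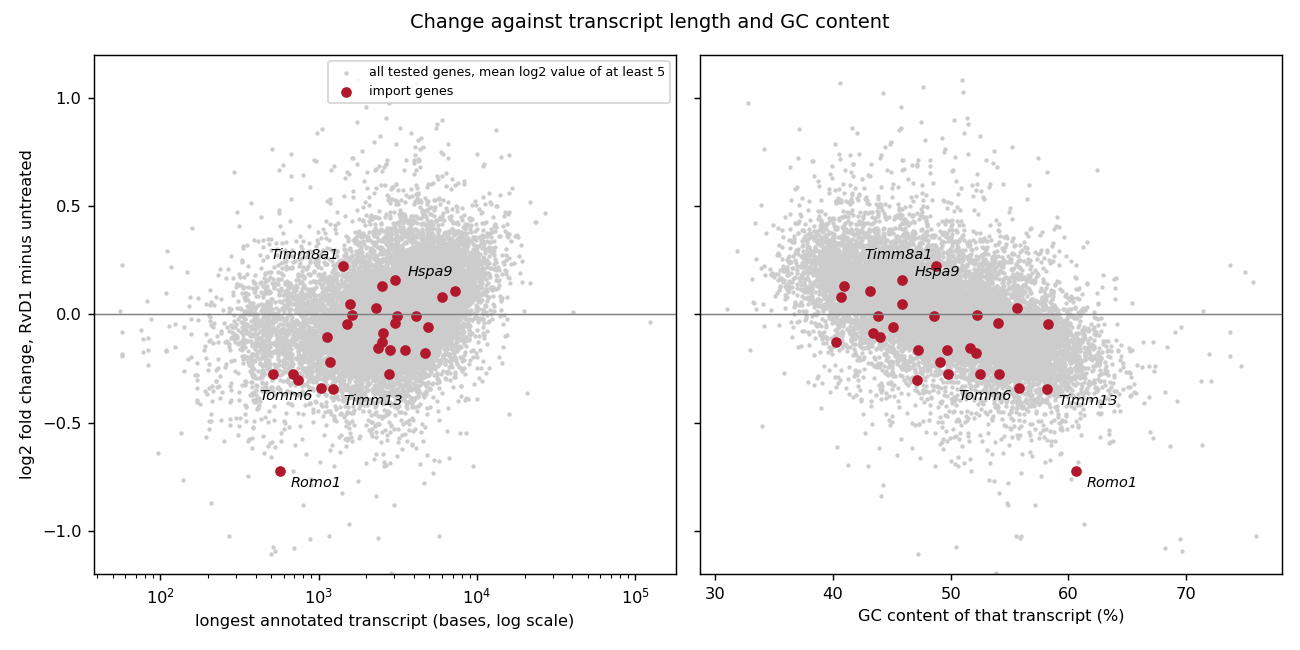
Log2 difference between RvD1 and untreated libraries against the length of the longest annotated transcript (left, log scale) and its GC content (right), for import genes (red) and the 13024 tested genes whose mean log2 value was 5 or more (grey, 9 of them outside the axis). Romo1 lies at the short and GC-rich end, and the grey cloud itself falls with GC content.

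Transcript length and GC content moved with the differences of the whole table. As a description over the 28 members, which share the same 6 libraries, Spearman's rho of the log2 difference was 0.515 with length and -0.515 with GC content. Over the 13024 tested and annotated genes whose mean log2 value was 5 or more it was 0.352 and -0.571. Each library was therefore also corrected for length and GC content. After this, 0 members passed the limma test in either direction, with 0.0863% of 18549 genes called lower and 0.0755% higher. Romo1 had a corrected log2 difference of -0.49 (SE 0.12; limma adjusted p = 0.173) and Timm13 one of -0.17 (SE 0.05; limma adjusted p = 0.254).

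The median log2 difference of the members was -0.17 after the correction and -0.10 before it, while Romo1 and Timm13 moved nearer to 0. That of all corrected genes was -0.01. Again 21 of 28 members were negative, where 51.4% of all corrected genes were negative and 48.6% positive. The corrected mean over the 28 members was 8.82, 8.73 and 8.71 (log2) in RvD1 and 8.89, 8.86 and 8.86 in untreated replicates 1, 2 and 3. The part of length and GC content in these differences was not tested. RvD1 lay wholly below untreated in 10 members after correction and wholly above in 1, Timm50, with shares of 10.9% and 7.22% over all corrected genes. At an unadjusted p under 0.05 in limma 9 were lower and 0 higher, against 7.4% lower and 4.73% higher over all. The receptors Tomm20 and Tomm70a, with long transcripts of 45.1% and 40.7% GC, then had log2 differences of -0.18 (SE 0.05) and -0.13 (SE 0.04). Tomm5 kept -0.31 (SE 0.08). Tomm22 had 0.00 (SE 0.05).

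**Figure D3:**
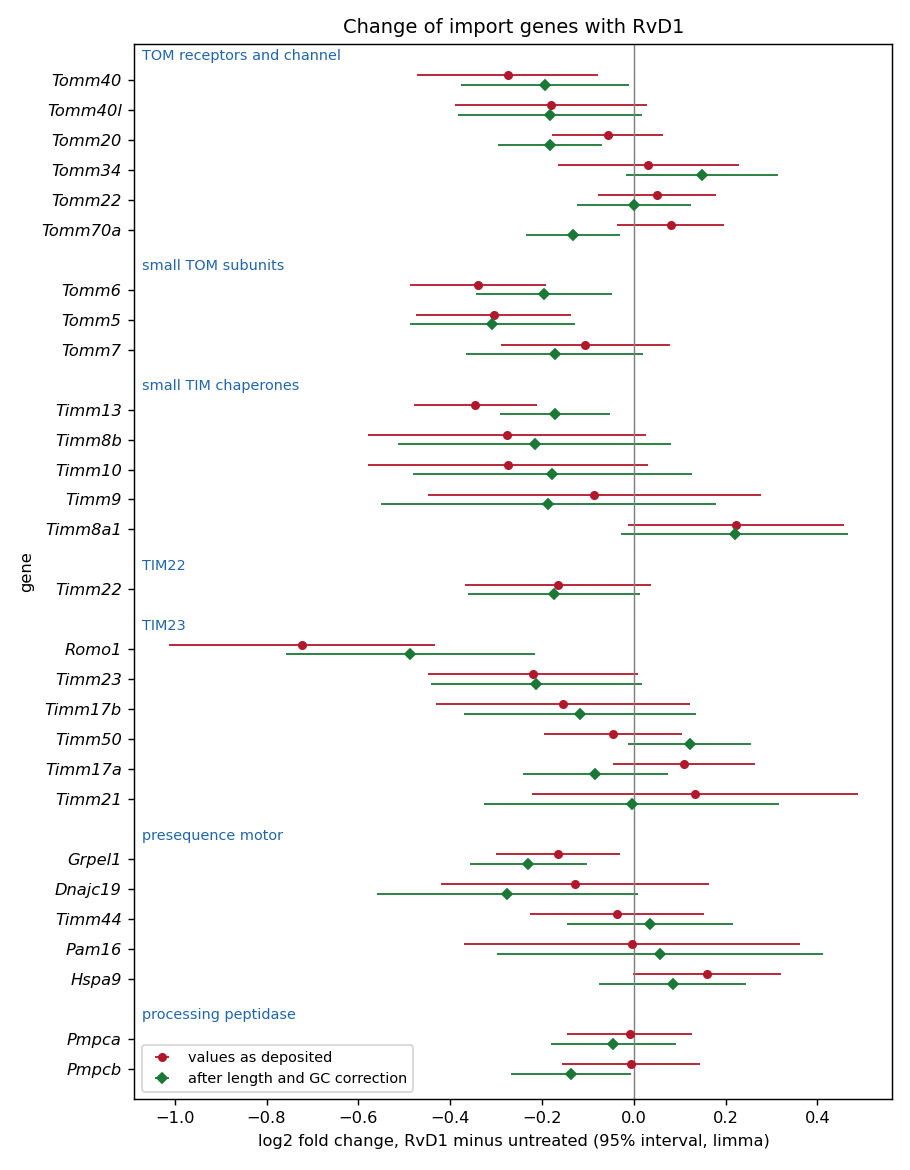
Log2 difference between RvD1 and untreated libraries with its 95% interval from limma for the 28 tested import genes grouped by role, from the values as deposited (red circles) and after correction for transcript length and GC content (green diamonds). Romo1 and Timm13 move towards 0 with the correction, while Tomm20 and Tomm70a move to the left.

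Related members could be set against each other within a library, which removes any scaling of the library. The log2 value of Timm17a minus that of Timm17b was 1.28, 1.52 and 1.19 in RvD1 and 1.14, 1.08 and 0.96 in untreated replicates 1, 2 and 3, so the groups did not overlap. The balance differed by 0.26 (exact permutation test, two-sided, p = 0.100, the smallest that 3 against 3 libraries allow; 0.200 adjusted over 4 pairs). After the length and GC correction this difference was 0.03. Timm17a has by far the longer transcript, 7280 bases against 2381, and the lower GC content, 43.2% against 51.6%.

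Timm8a1 minus Timm8b was 0.05, 0.36 and 0.01 in RvD1 and -0.36, -0.06 and -0.66 in untreated replicates 1, 2 and 3. Here the difference of 0.50 (exact permutation test, two-sided, p = 0.100; 0.200 adjusted over 4 pairs) stood at 0.44 after the correction. For Tomm40 over Tomm40l and Pmpca over Pmpcb the groups overlapped, with differences of -0.09 and 0.00 (exact permutation p = 0.6 and 0.9). The pairs were chosen with the values known.

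**Figure D4:**
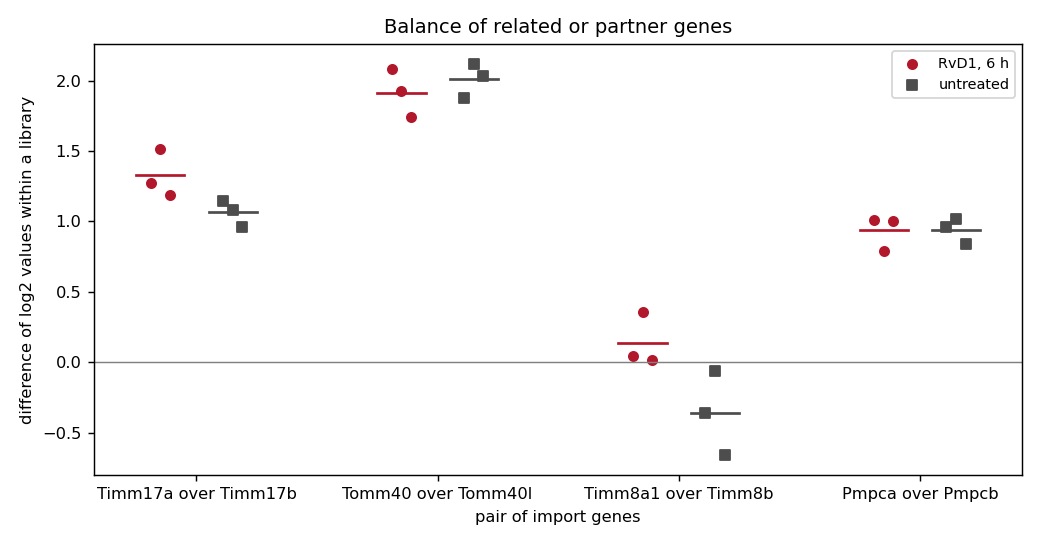
Difference of the log2 values of 2 related or partner import genes within each library, with red circles for RvD1 and grey squares for untreated libraries and a bar at each group's mean. For Timm17a over Timm17b and Timm8a1 over Timm8b all RvD1 libraries lie above all untreated ones.

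Other genes of mitochondrial import and protein care were taken from lists of known members. Of 16 further import and membrane assembly genes, 0 passed in either direction, and the median log2 difference was -0.06. At an unadjusted p under 0.05 in limma 1 was lower and 2 were higher, beside 9.65% and 10.3% of all tested genes. The smallest p belonged to Chchd4, the oxidoreductase that traps small TIM proteins between the membranes. Chchd4 stood at 8.29, 8.28 and 8.20 (log2) in RvD1 and 8.68, 8.49 and 8.50 in untreated replicates 1, 2 and 3, a log2 difference of -0.30 (SE 0.08; limma adjusted p = 0.0914), and -0.38 after the length and GC correction.

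Of 15 chaperones and proteases of the matrix and inner membrane, 1 fell and 0 rose, beside the 0.556% and 0.561% of all tested genes. At an unadjusted p under 0.05 in limma 4 were lower and 2 higher, beside 9.65% and 10.3% of all. The gene that fell was Htra2, a protease of the space between the membranes, at 9.32, 9.23 and 9.35 (log2) in RvD1 and 9.58, 9.74 and 9.68 in untreated replicates 1, 2 and 3. Its log2 difference was -0.37 (SE 0.07; limma adjusted p = 0.0442), and -0.19 after the correction (limma adjusted p = 0.256). The list had a median of -0.03.

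Of the 7 cytosolic chaperones that guide precursors, 0 passed, with a median of -0.01. At an unadjusted p under 0.05 in limma 0 were lower and 1 higher, beside 9.65% and 10.3% of all tested genes. Hsp90aa1 had the smallest p, with a log2 difference of 0.21 (SE 0.07; limma adjusted p = 0.132). Of 10 listed genes for outer membrane, fusion and fission proteins that were tested, 0 passed either, with a median of 0.03. Before adjustment, at p under 0.05 in limma, 2 were lower and 2 higher, beside the same shares of all tested genes. The fission enzyme Dnm1l had a log2 difference of 0.24 (SE 0.06, limma adjusted p = 0.0899) and 0.07 after the correction.

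Of 9 tested regulators of nuclear genes for mitochondria, 0 passed, with a median of -0.03 (-0.13 after the correction). At an unadjusted p under 0.05 in limma 3 were lower and 1 higher, beside 9.65% and 10.3% of all tested genes. After the correction 4 were lower and 0 higher, beside 7.4% and 4.73% of all corrected genes. The 3 lower ones were the coactivators Ppargc1b, with a log2 difference of -0.74 (SE 0.24; limma adjusted p = 0.145), and Pprc1, with -0.22 (SE 0.06; limma adjusted p = 0.0903), and the nuclear receptor Esrra, with -0.31 (SE 0.09; limma adjusted p = 0.109). Nrf1, whose motif is named above, had -0.10 (SE 0.06, limma adjusted p = 0.423). RvD1 lay wholly below untreated in 4 of the 9, the 3 lower ones and Nrf1, and wholly above in 1. Over all tested genes these shares were 12.8% and 12.6%. Links between these regulators and the motifs were not tested. The smallest p belonged to Gabpa, an ETS factor of the motif named above. Gabpa stood at 10.12, 10.17 and 10.11 (log2) in RvD1 and 9.92, 9.93 and 9.86 in untreated replicates 1, 2 and 3, without overlap. Its log2 difference was 0.23 (SE 0.05; limma adjusted p = 0.0759), and 0.04 after the correction.

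Both calls among the import genes were lost in most fits that left out 1 library, while both log2 differences stayed negative. Without RvD1 replicate 2, RvD1 replicate 3 or untreated replicate 1, 2 or 3, 0 members passed, in fits that called 0 to 5 of all 18899 genes. Without RvD1 replicate 1, 3 were lower (Romo1, Timm13 and Tomm40), where 1.12% of genes were called lower and 1.26% higher. Over these 6 fits the log2 difference of Romo1 ran from -0.86 to -0.59 (limma adjusted p 0.0497 to 0.180) and that of Timm13 from -0.38 to -0.32 (limma adjusted p 0.0389 to 0.165).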

How the data were processed

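Poly-A selected RNA was sequenced from 6 libraries with a TruSeq kit on a HiSeq instrument, per the labels' protocols, and the submitters' processing notes name TopHat2 2.0.7 and mm10. The counting, its annotation and the way of normalizing were not given in the sources used here. Per gene and library, the authors deposited 1 normalized value, read as log2 from the values themselves (0 to 17.4, antilogs summing to 12.4 to 12.8 M). Between 49.6% and 51.6% of genes per library were at 0. Of values worth up to 20 reads, 40.7% to 51.4% lay within 0.02 of a whole read, so no count test was run.

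Groups and columns were matched through sample titles. limma 3.58.1 (R 4.3.3) with a variance trend was fitted to the 18899 genes above 0 in at least 3 libraries, treatment alone in the model, two-sided, with Benjamini-Hochberg adjustment over all of them at 0.05, 4 residual and 4.62 prior degrees of freedom. For the correction, natural splines (4 degrees of freedom each) in log2 length and GC content of the longest GENCODE M21 transcript were fitted to each library's deviations from the gene means and subtracted. In GENCODE 36308 of 38087 identifiers (95.3%) and all 30 members were found. Promoters came from RefSeq (GRCm38.p6). Alternatives covered filters, scaling, the pseudocount, the trend, a replicate block, the correction and leaving out each library. Named members were those past the test, the smallest p per role and the extreme differences. Values of the other members were added for completeness. The members and lists were chosen with earlier results of these data known.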

Additional observations from a re-analysis of the deposited data

How the results depend on the processing

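As reported, 2 import genes were lower and 0 higher. The number lower was 0 after the length and GC correction, in limma without the trend and without the filter on low values. It was 1 with a pseudocount of 8 (Timm13), where 0.45% of all genes were called lower and 0.418% higher. Median centring gave 2 lower (Romo1 and Timm13), beside 0.519% and 0.317% of all genes. Quantile normalization gave 3 lower (Romo1, Timm13 and Tomm6), beside 0.683% and 0.556%. A replicate block gave 5 lower (Romo1, Timm13, Tomm6, Tomm5 and Tomm40) and 1 higher (Hspa9), where 4.48% of all genes were called lower and 5.55% higher. The labels give the replicate numbers no meaning. Deviations of same-numbered libraries correlated at 0.30, -0.08 and 0.42 (replicates 1, 2 and 3). Those numbered 1 and 3, but not 2, correlated best with their own number. Many markers kept the same order of replicates 1, 2 and 3 in both groups. Among them were the macrophage markers Adgre1, Csf1r, Cd68, Itgam, Lyz2, Fcgr1 and Cd14. The same held for S100a8, S100a9, Camp, Ltf, Col1a1, Col1a2, Col3a1, Pecam1, Cdh5 and Kdr. Others, such as Mertk, Elane, Pdgfrb, Cpa3, Kit and Tek, did not keep it. Csf1r stood at 14.09, 14.24 and 14.39 (log2) in RvD1 and 14.08, 14.26 and 14.38 in untreated replicates 1, 2 and 3. For S100a9 these values were 10.65, 11.23 and 12.03 in RvD1 and 10.31, 10.99 and 12.21 in untreated replicates. The levels of Romo1 and Timm13, given above, did not run alike. The labels state no pairing, none was tested and the main fit used none, so a pairing was neither shown nor excluded. With the block and the correction together 2 were lower (Romo1 and Grpel1), beside 2.46% of all genes lower and 1.65% higher. Leaving out 1 library at a time gave 0 to 3 lower and 0 to 0 higher. Before adjustment (limma p under 0.05), the fits without the block put 5 to 9 members lower and 0 to 2 higher, beside 6.75% to 12.4% and 4.73% to 13.1% of all genes. In limma without the trend 1 of all 18899 genes passed, and without the filter 12 of 21045, so these fits called few genes of any kind. The median log2 difference of the members was -0.17 after the correction, with and without the block, and -0.143 to -0.0585 over the fits without 1 library. Pmpca, near 0 throughout (-0.0547 to 0.0221 without 1 library), changed sign without RvD1 replicate 2 (0.01), untreated replicate 1 (0.02) and untreated replicate 2 (0.01); the cause was not tested. The median of all tested genes lay between -0.01 and 0.01 under every setting, so scaling moved it little. Pam16, the member with fewest reads, had the widest interval, -0.37 to 0.36.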
